A study of Mus musculus with 4 samples.

Results

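The genes described here are 10 immediate early genes, namely the FOS family (Fos, Fosb, Fosl1, Fosl2), the JUN family members Jun and Junb, the early growth response genes Egr1, Egr2 and Egr3, and Ier3. They were looked up by symbol among the probe sets that carry exactly 1 gene symbol in the platform annotation, which gave 9 of the 10, each with 1 probe set. All 9 were among the 14115 genes kept of 18820 measured, after those with a mean log2 value under the 25th percentile had been left out. Fosl1 was not found in this way, because both of its probe sets also carry the symbol Ccdc85b. Whole-transcript arrays were used on mouse inferior vena cava, 1 array for each of 4 groups and RNA of 4 mice pooled on each. The groups were Cd39-null, ligated, Cd39-null, sham, wild type, ligated, and wild type, sham. Ligated veins were tied off below the kidneys and taken after 48 h to study stasis thrombosis, and sham veins were dissected without being tied. All mice were 8 to 10 weeks old, both genotypes came from back-crosses of at least 8 generations into C57BL/6J, and CD39 is the ectonucleotidase encoded by Entpd1. The labels do not say which allele deletes the gene, how males and females were spread over the pools, which veins were tied only partly, or whether the clot was left in the RNA piece. With 1 array a group there is no spread between replicates, so differences between 2 arrays are given without an error or a test. Precision is limited by the number of arrays.

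Immediate early genes are transcribed within minutes of a stimulus, by transcription factors already present in the cell, and most of their transcripts are short-lived. FOS and JUN proteins pair through leucine zippers to form AP-1, which binds DNA, while EGR proteins bind DNA through zinc fingers. In the vessel wall they are known to follow injury, stretch, growth factors and cytokines. Ier3 differs from the others, since its product is a substrate of ERK that influences cell survival and is not an established DNA-binding factor.

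Most of these genes were higher after ligation, and the highest differences belonged to genes other than Fos. Egr2 and Fosl2 were past 2-fold in the knockout and in wild type. Fosl2 was only just so in wild type (1.04 log2), and came under 2-fold there with quantile normalisation or cyclic loess. Jun, Junb and Ier3 were past 2-fold in the knockout comparison and stood between 0.49 and 0.78 log2 in wild type. Fos, Fosb, Egr1 and Egr3 differed less than 2-fold in both. No gene passed an adjusted p of 0.05 in the only test the design allows.

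Promoter sequences of 4 of these genes are shown because the genes represent the different responses: Egr2 and Fosl2 with the differences of at least 2-fold in both genotypes, Jun with the widest gap between the genotypes, and Fos with little difference. Sequences are from RefSeq (build GRCm38.p6) and run from 250 bases before the start of transcription to 50 after it. The promoter set used held 7 of the 9 genes, with no entry for Egr1 and Egr3. Capitals mark matches, on either strand, to the CArG box bound by SRF, to TGACG, the core of the cAMP response element TGACGTCA (which therefore overlaps it), to the AP-1 site TGANTCA, to TGACATCA, the variant AP-1 site known from the Jun promoter, and to the EGR site GCGNGGGCG. Egr2 lies at chr10:67537680-67537979, plus strand, Fosl2 at chr5:32136222-32136521, plus strand, Jun at chr4:95052173-95052472, minus strand, and Fos at chr12:85473640-85473939, plus strand.
Egr2 promoter: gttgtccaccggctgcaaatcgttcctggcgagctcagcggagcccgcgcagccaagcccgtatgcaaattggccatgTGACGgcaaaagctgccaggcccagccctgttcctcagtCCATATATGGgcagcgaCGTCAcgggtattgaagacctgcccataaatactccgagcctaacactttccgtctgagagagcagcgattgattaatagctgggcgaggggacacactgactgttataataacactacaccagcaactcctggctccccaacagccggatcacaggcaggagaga
Fosl2 promoter: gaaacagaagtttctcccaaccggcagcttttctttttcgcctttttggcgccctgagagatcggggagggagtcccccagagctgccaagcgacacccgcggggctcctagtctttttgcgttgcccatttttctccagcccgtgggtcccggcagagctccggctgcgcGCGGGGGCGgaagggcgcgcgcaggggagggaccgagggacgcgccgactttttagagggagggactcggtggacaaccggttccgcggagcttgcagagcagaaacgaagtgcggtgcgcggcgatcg
Jun promoter: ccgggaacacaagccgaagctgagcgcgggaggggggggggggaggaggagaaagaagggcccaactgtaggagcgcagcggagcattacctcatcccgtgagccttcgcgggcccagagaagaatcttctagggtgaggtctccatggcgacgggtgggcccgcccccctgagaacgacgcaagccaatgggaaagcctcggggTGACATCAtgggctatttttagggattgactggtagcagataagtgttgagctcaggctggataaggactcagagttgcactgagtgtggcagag
Fos promoter: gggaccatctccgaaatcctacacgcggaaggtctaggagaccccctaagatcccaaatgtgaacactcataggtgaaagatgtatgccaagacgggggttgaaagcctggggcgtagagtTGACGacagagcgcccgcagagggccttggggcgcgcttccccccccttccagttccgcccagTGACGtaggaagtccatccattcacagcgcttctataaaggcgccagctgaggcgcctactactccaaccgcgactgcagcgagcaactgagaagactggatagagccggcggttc

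The Egr2 window holds a CArG box from position -133 to -124 relative to the start base, counted as 0, and the core TGACG once on each strand. Of 32851 promoters of this length, 1.63% hold a CArG box and 20.8% a TGACG core. The promoter set holds 5 starts for Egr2, of which 4 have a CArG box in their window and the most downstream is shown. Some of these 4 windows overlap and share a box, so they do not hold 4 separate sites. The Fosl2 window holds the EGR site from -79 to -71, found in 5.55% of promoters. The Jun window holds TGACATCA from -45 to -38, found in 3.62% of promoters. The Fos window holds the TGACG core at -129 and again at -66. Among the other members with a sequence, TGACG was present in Fosb and Junb, the EGR site also in Fosb, and none of the 5 motifs and no full TGACGTCA in Ier3. TGANTCA, found in 7.81% of all promoters, was in none of the 7 windows. These matches describe letters in a window of fixed length and show neither binding nor its absence.

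The arrays carried 1 departure from their labels that touches these results. Entpd1 had log2 values of 6.14 on the ligated array labelled Cd39-null, and 4.16 in Cd39-null, sham, against 6.17 in wild type, ligated, and 7.11 in wild type, sham. The knockout was thus low for its target in sham veins (-2.95 log2) but not in ligated veins (-0.03), and it is not known here whether the deletion covers the probe set. Every knockout ligation value below rests on that label, as does every genotype comparison or ordering that includes the ligated array labelled Cd39-null. The wild-type pair gives the ligation values without that array. As a level for dim signal, the 95th percentile of 1006 olfactory receptor probe sets was 2.68 log2 on the ligated array labelled Cd39-null, 2.97 in Cd39-null, sham, 2.66 in wild type, ligated, and 2.94 in wild type, sham. All 8 endothelial and 7 smooth muscle markers examined, such as Cdh5 and Myh11, were above it on all 4 arrays, so the defining markers of a vein wall were present. In such pieces fewer cells of a type and less RNA per cell cannot be told apart.

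Within the FOS family, Fosl2 was past 2-fold after ligation in both genotypes, and Fos stood close to its sham level. Fosl2 encodes FRA-2, a FOS protein without the strong activation domain of FOS itself. Its log2 level was 5.19 on the ligated array labelled Cd39-null, and 3.04 in Cd39-null, sham, against 4.55 in wild type, ligated, and 3.51 in wild type, sham. Both ligated arrays lay above both sham arrays, and the value in Cd39-null, sham, was only 0.07 above the olfactory level, so the size of its knockout difference is approximate. The ligation difference was 2.15 log2 (4.44-fold) in the knockout and 1.04 log2 (2.06-fold) in wild type. Fos, the founding member of the family, read 4.97 log2 on the ligated array labelled Cd39-null, and 4.83 in Cd39-null, sham, against 4.44 in wild type, ligated, and 4.25 in wild type, sham. The ligated and sham arrays of Fos overlapped, and the order followed genotype, with both knockout arrays above both wild-type arrays. Its ligation differences were 0.14 log2 (1.10-fold) in the knockout and 0.19 log2 (1.14-fold) in wild type. The knockout value became -0.15 when the probe sets with 1 symbol were quantile normalised again and -0.09 with cyclic loess on them. Fosb, whose shorter splice form is known to accumulate on repeated stimulation, read 3.07 log2 on the ligated array labelled Cd39-null, and 2.60 in Cd39-null, sham, against 3.08 in wild type, ligated, and 2.75 in wild type, sham. It was under the olfactory level on both sham arrays and just above it on both ligated ones, so its differences of 0.47 and 0.34 log2 (knockout and wild type) are near the limit of what these arrays can show.

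Fosl1, which encodes FRA-1, could not be read on its own. It shares 2 probe sets with Ccdc85b, and 1 of them read 4.95 log2 on the ligated array labelled Cd39-null, and 3.19 in Cd39-null, sham, against 4.45 in wild type, ligated, and 2.72 in wild type, sham. Its differences were 1.76 log2 (3.39-fold) in the knockout and 1.73 log2 (3.32-fold) in wild type, where the sham value lay under the olfactory level. The other shared probe set read 3.45 log2 on the ligated array labelled Cd39-null, and 2.91 in Cd39-null, sham, against 3.70 in wild type, ligated, and 3.51 in wild type, sham, with differences of 0.55 and 0.19. The 2 probe sets thus disagree, and neither value can be assigned to Fosl1 or to Ccdc85b.

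Among the JUN genes, the knockout comparison gave the higher values. Jun encodes the main activating partner of FOS in AP-1. Its log2 level was 7.36 on the ligated array labelled Cd39-null, and 5.54 in Cd39-null, sham, against 6.62 in wild type, ligated, and 6.13 in wild type, sham. Both ligated arrays lay above both sham arrays, with the Cd39-null, sham, array the lowest of the 4. Ligated exceeded sham by 1.82 log2 (3.53-fold) in the knockout and by 0.49 log2 (1.40-fold) in wild type. Junb, a weaker activator that can restrain JUN, read 4.26 log2 on the ligated array labelled Cd39-null, and 3.01 in Cd39-null, sham, against 3.65 in wild type, ligated, and 2.96 in wild type, sham. Here too the ligated arrays lay above the sham arrays, and both sham values were within 0.05 of the olfactory level. Its differences were 1.25 log2 (2.38-fold) in the knockout and 0.68 log2 (1.61-fold) in wild type.

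The EGR genes split, with Egr2 past 2-fold in both genotypes and Egr1 and Egr3 in neither. Egr2, a zinc finger factor known from myelinating Schwann cells and from T cells and macrophages, read 5.10 log2 on the ligated array labelled Cd39-null, and 3.51 in Cd39-null, sham, against 5.31 in wild type, ligated, and 3.95 in wild type, sham. Its ligated arrays stood well above its sham arrays, by 1.59 log2 (3.00-fold) in the knockout and 1.36 log2 (2.57-fold) in wild type. Of the nerve sheath genes, S100b differed by -2.84 and -1.23 log2, Cdh19 by -1.64 and -1.59 and Sox10 by -0.36 and -0.73 (knockout and wild type). Macrophage markers were at least 2-fold higher in 5 of 7 in the knockout and 7 of 7 in wild type. The cell source of Egr2 was not tested. Egr1, the EGR member best known from injured vessels, read 5.87 log2 on the ligated array labelled Cd39-null, and 5.21 in Cd39-null, sham, against 6.14 in wild type, ligated, and 5.57 in wild type, sham. The ligated arrays lay above the sham arrays by a similar step in each genotype, 0.66 log2 (1.58-fold) in the knockout and 0.57 log2 (1.48-fold) in wild type. Egr3, which is known downstream of calcium and antigen receptor signals, read 3.55 log2 on the ligated array labelled Cd39-null, and 3.80 in Cd39-null, sham, against 3.80 in wild type, ligated, and 3.88 in wild type, sham. It was the only member lower after ligation in both genotypes, by -0.26 and -0.07 log2, and its 4 values spanned 0.33 log2. Counted from the olfactory level of each array, Egr3 was not lower after ligation. It stood 0.87 (ligated) and 0.83 log2 (sham) above that level in the knockout, and 1.14 and 0.94 in wild type.

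Ier3 read 8.06 log2 on the ligated array labelled Cd39-null, and 6.31 in Cd39-null, sham, against 7.03 in wild type, ligated, and 6.25 in wild type, sham. The sham arrays were nearly level and both ligated arrays lay above them, by 1.75 log2 (3.37-fold) in the knockout and 0.78 log2 (1.72-fold) in wild type.

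**Figure D1:**
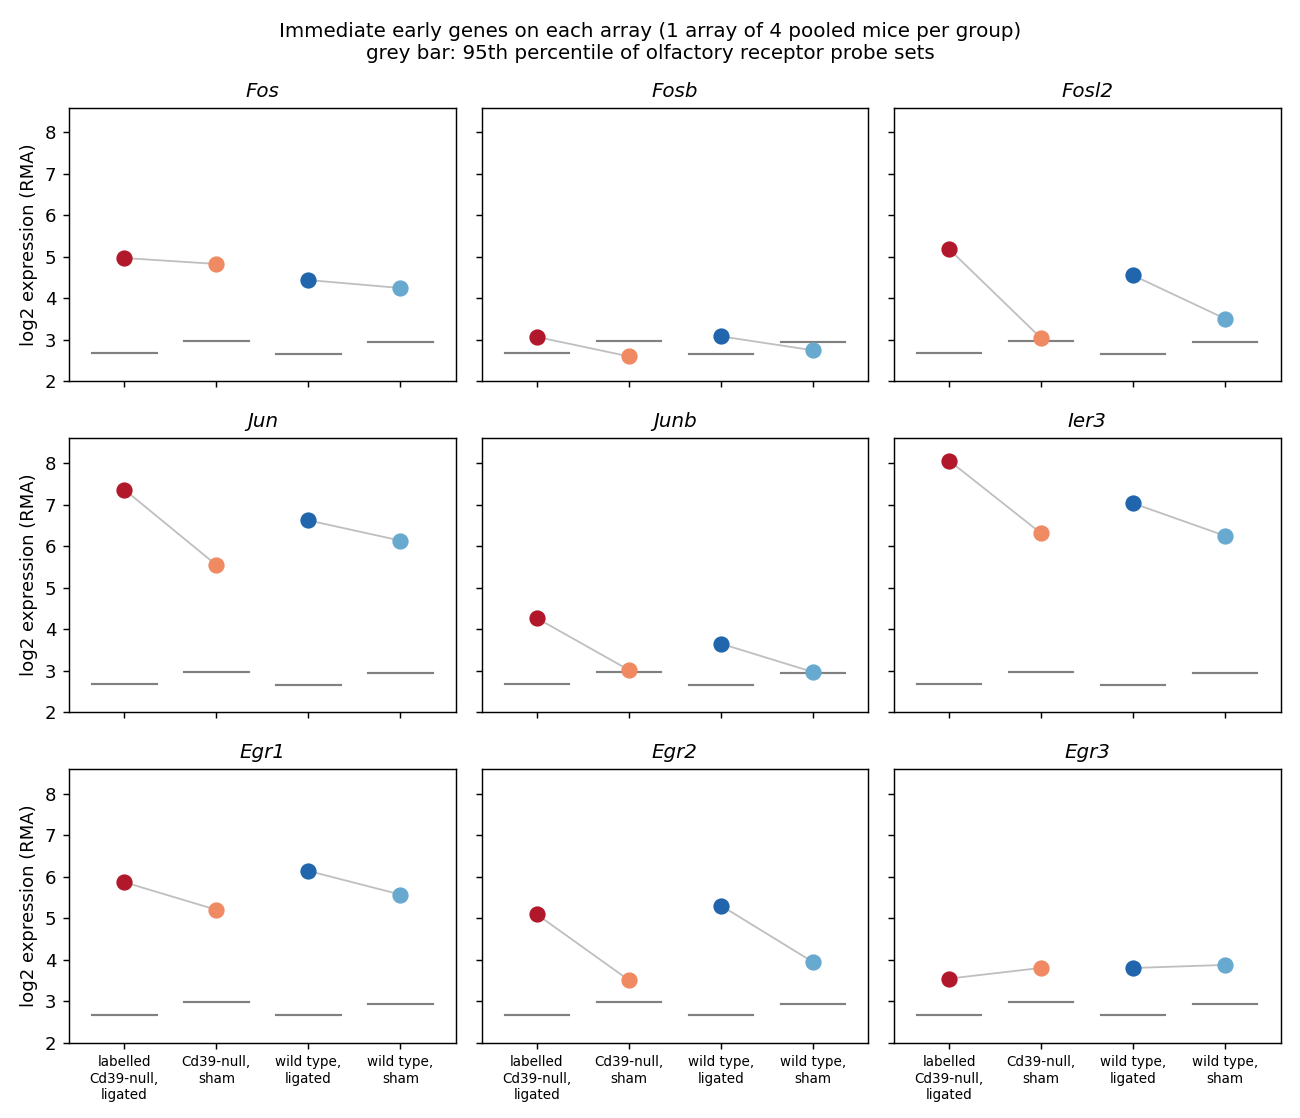
Log2 expression of the 9 measured immediate early genes (vertical axes) on the 4 arrays (horizontal axes), 1 point per array, with a line joining the arrays of a genotype and a grey bar at the 95th percentile of olfactory receptor probe sets. Fosl2, Jun, Junb, Ier3 and Egr2 stand higher on both ligated arrays than on both sham arrays, whereas the ligated and sham arrays of Fos and Egr3 overlap.

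Counted over the group, 5 of 9 members were at least 2-fold higher in the knockout comparison, against 10.9% of all genes kept, and 0 were at least 2-fold lower, against 5.8%. In wild type 2 of 9 were at least 2-fold higher, against 6.6% of all genes, and 0 lower, against 3.63%. The median ligation difference of the 9 members was 1.25 log2 in the knockout and 0.57 log2 in wild type, beside 0.03 and -0.01 log2 over all genes. Egr2 and Fosl2 were those past 2-fold in both, against 3.63% of all genes. In 8 of 9 members the difference was above 0 in both genotypes, against 34.7% of all genes, and in 7 of 9 both ligated arrays lay above both sham arrays, against 28%. Fos and Egr3 were the members whose ligated and sham arrays overlapped. The share of genes at least 2-fold apart that were higher was 65.3% in the knockout and 64.5% in wild type. It became 50.7% and 55.7% when the probe sets with 1 symbol were quantile normalised again. In that setting 5 and 1 members were at least 2-fold higher (knockout and wild type), against 1083 and 795 of all 14115 genes kept. The wild-type count fell because Fosl2 came to 0.99 log2 there.

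**Figure D2:**
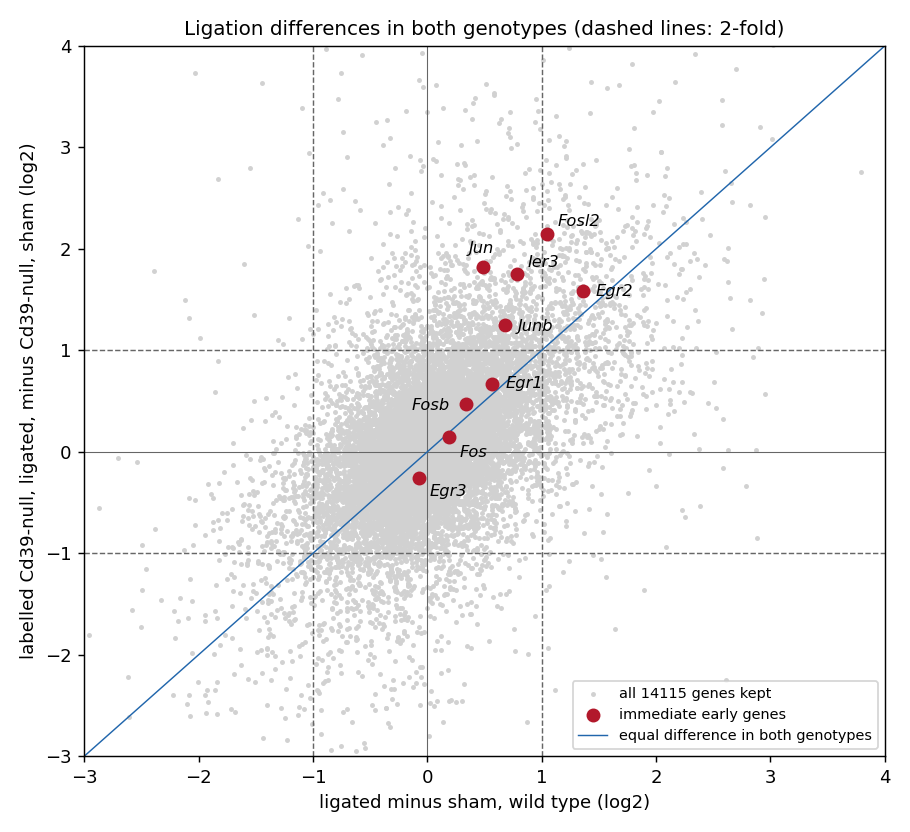
Ligated minus sham in log2 for the knockout (vertical axis) and wild type (horizontal axis), with the 9 members in red, all 14115 genes kept in grey (67 lie outside the axes), dashed lines at 2-fold and a blue line where both differences are equal. Jun, Ier3 and Fosl2 lie farthest above the blue line, and Egr2, Egr1, Fosb and Fos lie near it.

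The ligation difference was tested across both genotypes with limma, fitting genotype and ligation as additive terms, with Benjamini-Hochberg adjustment over all 14115 genes. This fit has 1 residual degree of freedom, draws most of its error from a prior with 3.67 degrees of freedom, and takes it as error where the genotypes responded unequally. It called 0% of genes at an adjusted p of 0.05. At an unadjusted p under 0.05 it had 2960 genes, and 13.2% of all genes were higher and 7.79% lower. Among the 9 members, 6 had an unadjusted p under 0.05 and all 6 were higher. Egr2 had a mean difference of 1.47 ± 0.23 log2 (SE) and a limma adjusted p of 0.0952, which is the smallest of all genes and shared by 251 of them. For Fosl2 the mean was 1.60 ± 0.34 log2 with a limma adjusted p of 0.121. Ier3 followed with 1.27 ± 0.31 log2 and 0.142, Junb with 0.97 ± 0.26 log2 and 0.155, and Jun with 1.15 ± 0.38 log2 and 0.198 (limma adjusted p). Egr1 stood at 0.62 ± 0.22 log2 with a limma adjusted p of 0.219. The remaining 3 members had limma adjusted p-values between 0.369 for Fosb and 0.710 for Egr3. An exact permutation test of 2 ligated against 2 sham arrays cannot give a two-sided p below 0.333, so none is given.

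Set against each other, the genotypes lay within 2-fold in these genes except for Ier3 in ligated veins. Jun, Fosl2, Junb, Ier3 and Egr3 were farther apart between genotypes in ligated than in sham veins, and Fos, Fosb, Egr1 and Egr2 were closer. In sham veins 0 of 9 members were at least 2-fold apart, against 2.95% of all genes at least 2-fold higher and 3.54% lower in the knockout. Jun (-0.59 log2), Fosl2 (-0.47), Egr2 (-0.44) and Egr1 (-0.37) were lower in Cd39-null, sham, than in wild type, sham, and Fos was higher (0.58). In ligated veins Ier3 was 2.04-fold higher on the array labelled Cd39-null (1.03 log2), the only member past 2-fold, against 3.61% of all genes higher and 2.66% lower. Quantile normalising again or cyclic loess left 0 members past 2-fold in that comparison, against 810 and 891 genes kept at least 2-fold apart. Ier3 lay between 0.91 and 1.10 log2 over the alternatives tried. Jun (0.74 log2), Fosl2 (0.63), Junb (0.62) and Fos (0.53) were also higher there, whereas Egr1 (-0.27), Egr2 (-0.21) and Egr3 (-0.26) were lower. The median of the 9 was -0.15 log2 in sham and 0.53 log2 in ligated veins, beside -0.07 and -0.03 over all genes. In the genotype term of the same limma fit, 0% of genes had an adjusted p under 0.05 and 979 genes (6.94%) an unadjusted one, none of them a member. The smallest genotype p among the members was that of Fos, with 0.56 ± 0.22 log2 and a limma adjusted p of 0.734.

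**Figure D3:**
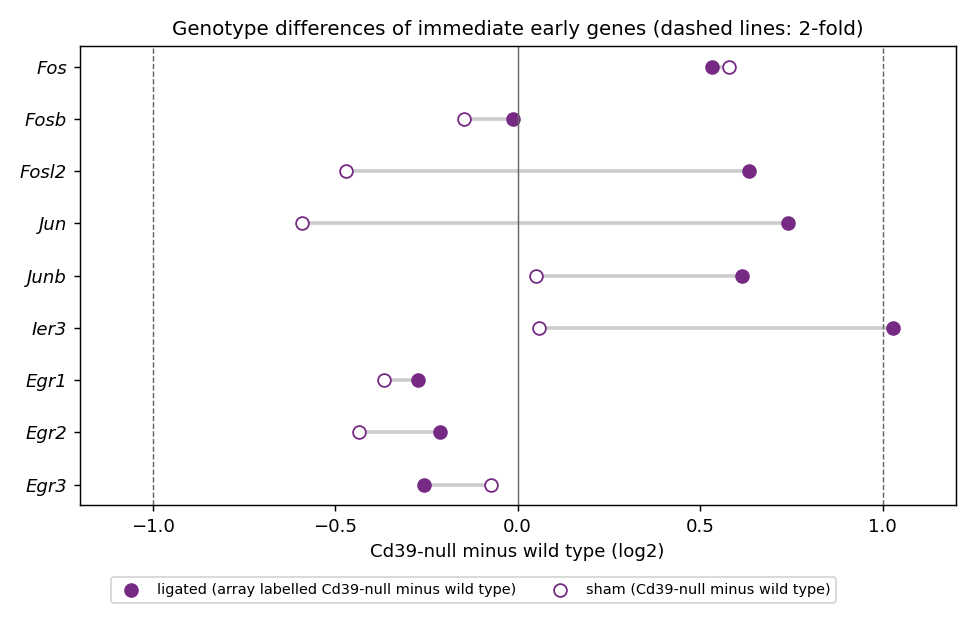
Cd39-null minus wild type in log2 (horizontal axis) for each member, with filled points for ligated and open points for sham veins and dashed lines at 2-fold. Jun and Fosl2 lie below 0 in sham veins and above it in ligated veins, while Fos lies near 0.5 in both.

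The gap between the genotypes' ligation differences was widest for Jun (1.33 log2) and Fosl2 (1.11), the 2 members past 2-fold, against 6.99% of all genes at least 2-fold higher and 5.5% lower by this measure. Ier3 (0.97) and Junb (0.57) came next, and Egr2 (0.22), Fosb (0.13), Egr1 (0.09), Fos (-0.05) and Egr3 (-0.18) lay near the 0.04 log2 of all genes. No test of this gap is possible, since the model with it has no residual degree of freedom. Part of the gap for Jun and Fosl2 lies in their lower values in Cd39-null, sham. With wild type, sham, as the reference for the ligated knockout array, an alternative added after the data were seen, Ier3 stood at 1.81 log2, Fosl2 at 1.68, Junb at 1.30, Jun at 1.23 and Egr2 at 1.15. These are the same 5 members past 2-fold, against 9.52% of all genes. This reference uses the same ligated array and differs from it in genotype label and surgery, so it is not an independent check.

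Cell type markers moved with the same arrays, and their part in these values was not tested. Of 7 macrophage markers, 5 were at least 2-fold higher after ligation in the knockout and 7 in wild type, and the log2 of their summed level was 10.2 on the ligated array labelled Cd39-null, and 8.49 in Cd39-null, sham, against 10.3 in wild type, ligated, and 8.07 in wild type, sham. All 7 platelet markers were at least 2-fold higher in the knockout comparison and 5 of 7 lower in wild type, with sums of 11.3 on the ligated array labelled Cd39-null, and 7.85 in Cd39-null, sham, against 9.12 in wild type, ligated, and 9.70 in wild type, sham. Neutrophil markers were at least 2-fold higher in 4 of 7 in the knockout and 2 of 7 in wild type, with sums of 12.0 on the ligated array labelled Cd39-null, and 11.3 in Cd39-null, sham, against 10.0 in wild type, ligated, and 10.2 in wild type, sham. The Cd39-null, sham, array had 5 of 6 adipocyte and 4 of 5 B and T cell markers at least 2-fold above wild type, sham, and 4 of 8 endothelial and 6 of 7 smooth muscle markers at least 2-fold below it. Of all genes, 2.95% were higher and 3.54% lower in that comparison. After ligation, adipocyte markers were at least 2-fold lower in 5 of 6 in the knockout, and in wild type 1 was lower and 1 higher. Endothelial markers were lower in 0 of 8 in the knockout and 6 of 8 in wild type. Of 7 smooth muscle markers, 3 were lower and 1 higher in the knockout, and 2 lower and 0 higher in wild type. The collagen genes Col1a1 and Col3a1, 2 of 6 fibroblast markers, were higher in each genotype. Of all genes, 10.9% were higher and 5.8% lower after ligation in the knockout, and 6.6% and 3.63% in wild type. Lum, Dpt and Dcn were below sham in both, and Lum past 2-fold in the knockout (-1.41 log2). On the ligated array labelled Cd39-null, 7 of 7 neutrophil and 6 of 7 platelet markers were at least 2-fold above wild type, ligated, and 5 of 7 smooth muscle markers at least 2-fold below it. Between these ligated arrays, 3.61% of all genes were higher and 2.66% lower.

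Of 28 other immediate early genes, several stress and growth genes were higher after ligation. At least 2-fold higher were 11 in the knockout (10.9% of all genes) and 4 in wild type (6.6%), with 3 higher in both (3.63%), and the medians were 0.57 and 0.06 log2. In wild type 1 of the 28 was at least 2-fold lower, near the 3.63% of all genes, and in the knockout 0 were, against 5.8%. The 1 lower in wild type was Klf4, a zinc finger factor of smooth muscle and endothelium (-0.74 and -1.27 log2, knockout and wild type). The 3 higher in both were Gadd45b, a stress sensor that binds MAP kinase kinases (2.14 and 1.43 log2, knockout and wild type), Ccn2, a matricellular protein also called CTGF (1.15 and 1.95), and Ier2 (1.01 and 1.19). Ier2 was under the olfactory level in wild type, sham, so its wild-type value is approximate. The kinase gene Plk3 (2.39 and 0.56) and the stress-induced repressor Atf3 (2.73 and 0.12) were past 2-fold in the knockout comparison. Atf3 was lower in Cd39-null, sham, than in wild type, sham (4.48 against 5.47 log2). None of the 28 passed an adjusted p of 0.05 in limma. At an unadjusted p under 0.05, 9 were higher and 1 lower, against 13.2% and 7.79% of all genes.

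Genes of proteins that pair with FOS and JUN were past 2-fold at a share near that of all genes. Of 17 kept, 2 were at least 2-fold higher in the knockout (10.9% of all genes), 1 in wild type (6.6%) and 0 in both (3.63%), with medians of 0.13 and -0.14 log2. Besides Atf3, the largest mean differences belonged to Maf (0.53 and 1.21), Batf (0.70 and 0.78) and Nfe2l1 (-0.55 and -0.71). Kinases and promoter factors upstream of immediate early genes had medians of 0.38 and 0.12 log2 over 18 genes. Of these, 2 were at least 2-fold higher in the knockout, again near the 10.9% of all genes. In wild type 0 were higher and 1 lower, against 6.6% and 3.63% of all genes. Map2k1, which encodes the ERK-activating kinase MEK1, differed by 1.58 and 0.70 log2, Srf, the factor that binds the CArG box, by 1.04 and 0.94, and Map2k4, an activator of JNK, by 0.96 and 0.53. The chromatin kinase gene Rps6ka5, the one lower in wild type, stood at -0.02 and -1.04 log2 and was at or under the olfactory level on 2 arrays.

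Among attenuators of the response, Nab2 stood at a similar difference in both genotypes. Nab2, a corepressor of EGR proteins and itself an EGR target, differed by 1.37 log2 in the knockout and 1.52 log2 in wild type, with a limma adjusted p of 0.0952. It was the only one of 18 attenuators at least 2-fold higher in both genotypes, against 3.63% of all genes, and 5 were in the knockout, against 10.9%. Dusp6, an ERK phosphatase, differed by 1.46 and 0.72 log2, the cytokine signalling inhibitor Socs3 by 1.42 and 0.68, and the RNA-binding Zfp36l1 by 0.92 and 0.86. The list medians were 0.58 and 0.20 log2.

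Many genes known as targets of AP-1 or EGR1 were higher after ligation. Of 17 AP-1 targets measured, 14 were at least 2-fold higher in the knockout (10.9% of all genes) and 7 in wild type (6.6%), all 7 of these in both (3.63%), with medians of 2.42 and 0.91 log2. They included Timp1, an inhibitor of matrix proteases (4.27 and 4.16), the chemokine Ccl2 (3.20 and 2.91), Il6 (4.40 and 1.69), the heme-degrading Hmox1 (3.46 and 2.03), Il1b (3.34 and 1.42) and the urokinase Plau (2.42 and 2.09). Il6 was under the olfactory level in wild type, sham, so its wild-type value is approximate. Of 13 EGR1 targets, 9 were at least 2-fold higher and 1 lower in the knockout (10.9% and 5.8% of all genes) and 5 higher in wild type (6.6%), with medians of 1.40 and 0.84 log2. Thbs1, which encodes a protein of platelets and the vessel wall, differed by 4.82 and 0.89 log2, Cd44 by 2.83 and 1.36, Tgfb1 by 2.41 and 0.83, Fn1 by 1.86 and 1.03, and Col1a2 by 1.29 and 1.93. Thbs1 was much lower in Cd39-null, sham, than in wild type, sham (4.65 against 7.11 log2), which adds to its knockout difference. Plau, Cd44 and Tgfb1 stand in both target lists, and Nab2 is both an attenuator and an EGR1 target. Many of these genes also answer to other factors and are expressed by the macrophages, neutrophils or platelets whose markers moved with the arrays, and no link to the members was tested.

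**Figure D4:**
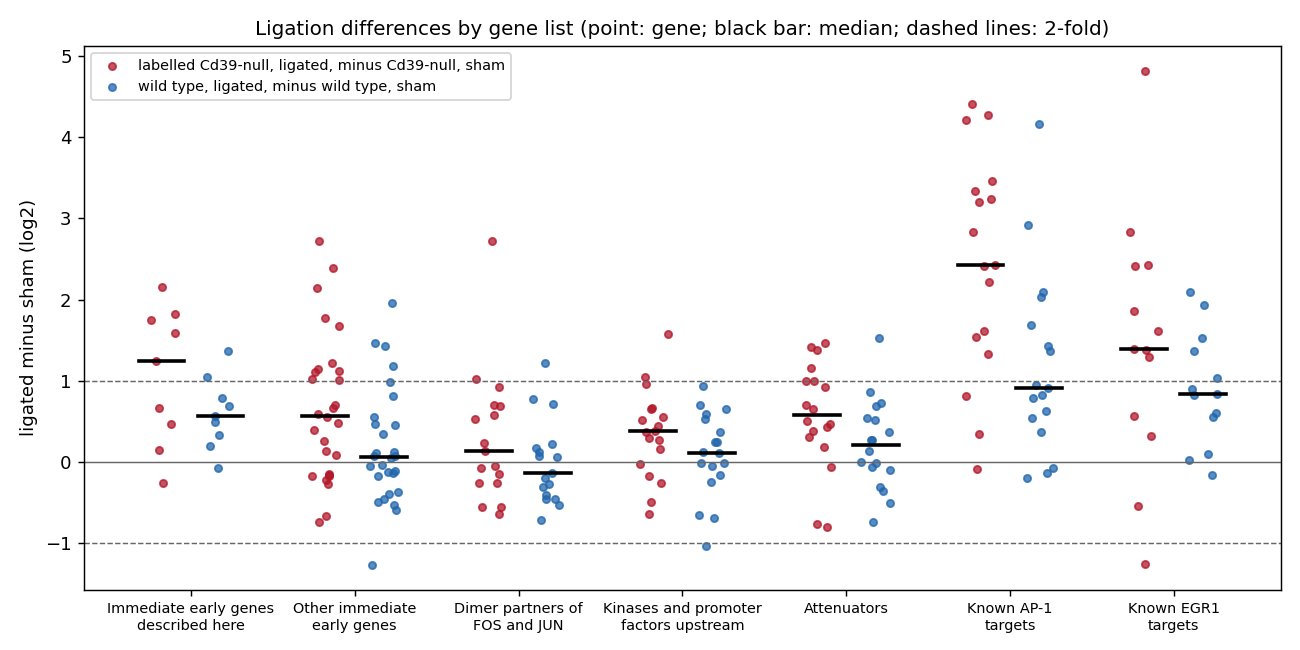
Ligated minus sham in log2 (vertical axis) for each gene of 7 lists, with red points for the knockout and blue points for wild type, black bars for list medians and dashed lines at 2-fold. AP-1 target genes have the highest medians, 2.42 in the knockout and 0.91 in wild type, and dimer partners lie near 0.

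Members also resembled each other to different degrees over the 4 arrays. By the Euclidean distance between log2 values centred on each gene's mean, the nearest pairs were Fosb with Egr1 (0.32 log2), Junb with Ier3 (0.42) and Fosl2 with Jun (0.46), and the farthest was Fosl2 with Egr3 (1.89). Fosl2 had the widest range of the members (2.15 log2). The 5 genes of all genes kept that lay nearest to it were Itpa (0.13), Notch2 (0.16), Slc39a14 (0.17), Pgm2 (0.17) and Rhoc (0.17). With only 4 arrays such likeness is common, and 153 genes lay within 0.5 log2 of Fosl2.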

How the data were processed

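The authors deposited 1 log2 value for each probe set and array, made by RMA with oligo (submitters' processing notes); the versions were not given. RMA corrects background, makes the arrays' distributions alike and summarises probes, so a shift of all genes between groups would not show. RNA of 4 mice was pooled for each array, per the series' design text. The values were used as deposited. Of 35556 probe sets, 21218 carried 1 symbol, and the brightest per gene by mean log2 was taken. Genes were kept at or above the 25th percentile of the mean (2.29 log2). Comparisons were ligated against sham in each genotype, Cd39-null against wild type in each surgery, and the additive fit with limma 3.58.1 in R 4.3.3, tested on simulated data. For arrays no read depth applies.

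Members and gene lists were chosen with earlier results of these data known. Every member is named. From each list, up to 4 genes with the largest mean ligation difference were named, and up to 6 at least 2-fold apart in both genotypes, besides Entpd1, cell type markers and the 5 nearest genes of the member with the widest range. Names of the shared probe sets and of the genes in the closing section follow no rule. Alternatives were other normalisations, filters, the mean of a gene's probe sets, other limma settings, all probe sets as features and a 1.5-fold threshold. The other normalisations were applied to the probe sets with 1 symbol only.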

Additional observations from a re-analysis of the deposited data

Results flagged for a closer look

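The signal of 1 of the 2 probe sets shared by Fosl1 and Ccdc85b lies outside the main measurement, which used only probe sets with 1 symbol. It was 1.76 log2 higher in the ligated array labelled Cd39-null than in the sham one, and 1.73 log2 higher in wild type, ligated, than in wild type, sham, where it lay under the level of dim signal, so that the wild-type value is approximate. Which of the 2 genes it reports was not tested.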

How the results depend on the processing

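Over 10 alternatives, 632 values were compared with those reported; 602 kept their direction and, for counts, stayed within 1.5 times, 30 did not, and 0 values past 2-fold or past the test changed sign. A value with no replicates was counted as changed where it changed sign or moved by over 1.5-fold. In wild type, members at least 2-fold higher after ligation numbered 1 after quantile normalisation and 1 after cyclic loess, as Fosl2 came under 2-fold, and 4 at a 1.5-fold threshold, against 2 reported. Of the 14115 genes kept, 795 and 811 were at least 2-fold higher in wild type after quantile normalisation and cyclic loess. In ligated veins, members at least 2-fold higher in the knockout than in wild type numbered 0 with either renormalisation and 4 at 1.5-fold, against 1, and in sham veins 1 member was lower at 1.5-fold, against 0. At 1.5-fold, 5145 genes were apart after ligation in the knockout, 3896 in wild type, 3192 between genotypes in sham veins, 2519 in ligated veins and 4448 in the gap of ligation differences. In limma, 1 member had an unadjusted genotype p under 0.05 after quantile normalisation, cyclic loess, median centring, without a filter and with all probe sets, against 0. With all probe sets as features, 5525 probe sets had an unadjusted p under 0.05 for ligation and 2042 for genotype, from a larger number tested. No setting brought a member under an adjusted p of 0.05; over them that of Egr2 ran between 0.0793 and 0.213. At the 50th percentile filter Fosb was no longer kept. No paired analysis was possible because each group has 1 array and the labels give no replicate numbers, and leaving out an array leaves the fit no residual degree of freedom. Causes were not tested.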
